A study of Mus musculus with 3 samples.

Results

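The genes described here were 8 that code for the weapons and signals of cytotoxic lymphocytes: the granzymes Gzma, Gzmb and Gzmc, perforin (Prf1), the granule protein gene Nkg7, the protease gene Ctsw and the chemokine genes Xcl1 and Ccl5. They were 8 of the 32285 genes of the expression table and were chosen by name after their levels across cycling thymocytes, cytotoxic cells with and without a T-cell receptor β chain (TRB) contig and other lymphoid cells of these data had been seen. Levels across those cells are therefore given as descriptions, without a test.

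The cells came from wild-type mice without treatment and were collected after 13 days in culture. In ORFTOCs, thymic epithelial cells that had been grown from E16.5 thymi as organoids were reaggregated with epithelium-depleted thymus cells of E13.5 embryos and wild-type mouse embryonic fibroblasts. In FTOCs, intact E13.5 thymus lobes were cultured in the same medium. For each of the 2 kinds of culture, 2 cultures were mixed into a pool before the pool was marked with a hashtag antibody, and both pools were run in 1 lane for 5′ gene expression, T-cell receptor contigs and hashtags. Each pool is thus 1 sample, no spread between cultures can be had, and no test between pools was possible. All intervals are 95% intervals (exact Poisson for counts, Clopper-Pearson for shares, exact conditional for ratios) and cover counting error only.

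Cytotoxic lymphocytes store granzymes, which are serine proteases, in granules together with perforin. On contact with a target, the granule content is released, perforin opens the way into the target cell and the granzymes cleave proteins there. The same cells release the chemokines Xcl1, which acts on cross-presenting dendritic cells through Xcr1, and Ccl5, which attracts leukocytes. In the thymus such cells include natural killer cells, γδ T cells and unconventional αβ T cells.

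On GRCm38.p6, the mm10 build, Gzmb spans chr14:56258836-56262334 and Gzmc spans chr14:56231397-56241647. Both sit in a run of 7 granzyme genes of 144.7 kb on chromosome 14, with Gzmd, Gzme, Gzmf, Gzmg and Gzmn. Gzma spans chr13:113093824-113100981 and Prf1 spans chr10:61297751-61304684, away from that run. Nkg7 spans chr7:43437138-43438246, Ctsw chr19:5465043-5468628, Xcl1 chr1:164931644-164935522 and Ccl5 chr11:83525778-83530518. The promoters of Gzma, Gzmb, Gzmc and Prf1 are printed because the 3 granzymes differed most in which cells held them and Prf1 was hardly counted in any cell. Each window is 300 bases of RefSeq sequence, read 5′ to 3′ on the strand of the gene from 250 bases before the annotated start to 50 bases after it: chr13:113100932-113101231 (minus strand) for Gzma, chr14:56262285-56262584 (minus) for Gzmb, chr14:56234608-56234907 (minus, a start inside the span of the gene) for Gzmc and chr10:61297586-61297885 (plus) for Prf1. The start used for Prf1 also lies inside the span of its gene. Capitals mark matches, on either strand, of the short motifs searched.
Gzma: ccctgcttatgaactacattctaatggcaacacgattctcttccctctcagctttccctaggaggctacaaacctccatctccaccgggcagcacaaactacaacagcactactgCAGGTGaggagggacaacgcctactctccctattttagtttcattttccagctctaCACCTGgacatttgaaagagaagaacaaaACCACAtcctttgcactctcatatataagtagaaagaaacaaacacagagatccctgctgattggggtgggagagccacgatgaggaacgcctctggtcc
Gzmb: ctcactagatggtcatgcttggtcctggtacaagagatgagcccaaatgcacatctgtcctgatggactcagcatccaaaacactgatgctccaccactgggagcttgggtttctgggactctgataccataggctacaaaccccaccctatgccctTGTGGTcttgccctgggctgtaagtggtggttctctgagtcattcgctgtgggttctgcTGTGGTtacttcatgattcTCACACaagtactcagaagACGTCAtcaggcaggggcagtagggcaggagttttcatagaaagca
Gzmc: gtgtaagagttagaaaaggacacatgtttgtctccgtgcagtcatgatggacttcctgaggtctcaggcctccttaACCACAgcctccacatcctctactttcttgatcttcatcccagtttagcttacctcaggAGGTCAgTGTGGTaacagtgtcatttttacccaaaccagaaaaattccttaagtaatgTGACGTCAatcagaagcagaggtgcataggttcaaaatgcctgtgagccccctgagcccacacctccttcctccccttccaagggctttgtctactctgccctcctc
Prf1: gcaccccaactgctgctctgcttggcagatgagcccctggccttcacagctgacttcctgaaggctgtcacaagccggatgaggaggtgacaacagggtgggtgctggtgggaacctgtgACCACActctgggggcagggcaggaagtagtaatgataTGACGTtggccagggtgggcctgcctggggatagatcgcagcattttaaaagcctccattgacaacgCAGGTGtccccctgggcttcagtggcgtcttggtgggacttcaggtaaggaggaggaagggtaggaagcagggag
Promoters were found for 6 of the 8 genes, and those of Ctsw and Ccl5 were not used here. The RUNX motif, searched as TGTGGT, was in 6 of these 6 promoters and in 16.8% of 32851 mouse promoters of the same length. The T-box motif, searched as TCACAC, was in 3 of 6, those of Gzmb, Nkg7 and Xcl1, and in 14.5% of all. A half-site of the cAMP response element, searched as ACGTCA, was in 3 of 6, those of Gzmb, Gzmc and Prf1, and in 7.51% of all, and Gzmc held a pair of overlapping matches on opposite strands. The E box, searched as CAGGTG, was in those of Gzma and Prf1 and in 20.2% of all. The ROR motif, searched as AGGTCA, was in that of Gzmc and in 16.3% of all. The GATA motif, searched as AGATAA, was in 0 of 6 and in 11.2% of all. A match is a description of letters and not of a bound site.

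Of 10245 barcodes that passed the filters, 8392 were kept as single cells of 1 pool (4248 ORFTOC and 4144 FTOC), and 5896 of them were immune. Immune cells held a median of 5355.5 UMIs (unique molecular identifiers, each counting 1 captured RNA molecule) in ORFTOCs and 2479.5 in FTOCs. Clusters were named from marker genes other than the 8, with the 8 left out of clustering. This gave 830 cytotoxic-like cells (360 ORFTOC, 470 FTOC) with a median of 9328 UMIs, 817 cycling thymocyte-like, 2096 double-positive-like, 321 selected-like, 532 mature single-positive-like, 173 γδ T-like, 251 ILC2-like and 588 ILC3-like cells (ILC, innate lymphoid cell), besides 185 macrophage-like and 29 dendritic-like cells. The cytotoxic-like name rests on a marker list of natural killer receptor and related genes, so the levels of these markers are no separate check of it. Among them Klrd1 stood at 530.2 CPM (UMIs per 1000000 UMIs of all genes in the same cells) in these cells and at 68.9 or lower in the other classes, while the killer receptor genes Klrb1c, Klrk1 and Ncr1 were low, at 38.4, 23.6 and 15.7. Outside that marker list, the innate genes Fcer1g and Tyrobp stood at 539 and 306 in cytotoxic-like cells. They stood at 8.05 and 8.55 in mature single-positive-like and at 1804 and 150.5 in ILC3-like cells. The cells also held T-cell genes, with Cd3d at 1017 and Cd3g at 891 CPM, and of the cells without a TRB contig only 9 had no UMI of Cd3d, Cd3e or Cd3g, so most of these lymphocytes held CD3 transcripts. Cd3g is not confined to T cells here, as it stood at 749 in ILC2-like cells, of which 4.38% had a TRB contig. Cd3d stood at 52.1 there. Trac was lower in cytotoxic-like cells (60.2) than in mature single-positive-like cells (137). Levels in CPM are taken from the summed UMIs of all cells of a group. No correction for gene length was made, since 1 count is 1 molecule in this 5′ assay, and levels are compared between groups for the same gene.

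The 8 genes did not share 1 home. Cytotoxic-like cells were 9.89% of all cells and held 12.2% of all UMIs, yet they held 94.95% of the Xcl1 UMIs, 88.9% of the Gzmc, 74.5% of the Gzmb, 72.2% of the Ctsw and 70.3% of the Nkg7 UMIs. They held 46.5% of the Ccl5 UMIs, 15 of the 50 Prf1 UMIs and 13.5% of the Gzma UMIs. Most Gzma UMIs, 58.3%, lay in cycling thymocyte-like cells. Taken over the 8 genes at once, 66.8% of the UMIs were in cytotoxic-like cells. These shares depended on how the class was drawn. With a Klrd1 UMI in place of clusters they were 55.9% for Xcl1, 49.4% for Gzmc and 49.99% for Gzmb. With the 8 genes kept among the clustering features, which left 363 cells in the class, they were 35.7% for Nkg7, 45.4% for Ctsw, 29.2% for Ccl5 and 5.17% for Gzma.

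**Figure D1:**
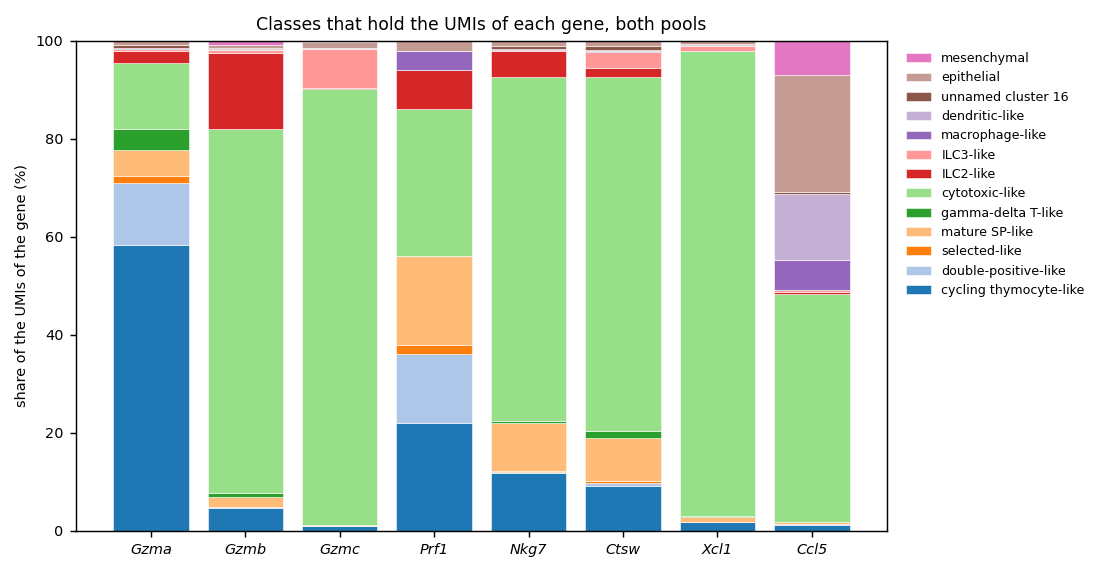
Share of the UMIs of each gene (percent of its UMIs over all 8392 cells, stacked bars) held by each cell class, both pools together. Cytotoxic-like cells hold 94.95% of the Xcl1 UMIs but 13.5% of the Gzma UMIs, of which cycling thymocyte-like cells hold 58.3%.

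**Figure D2:**
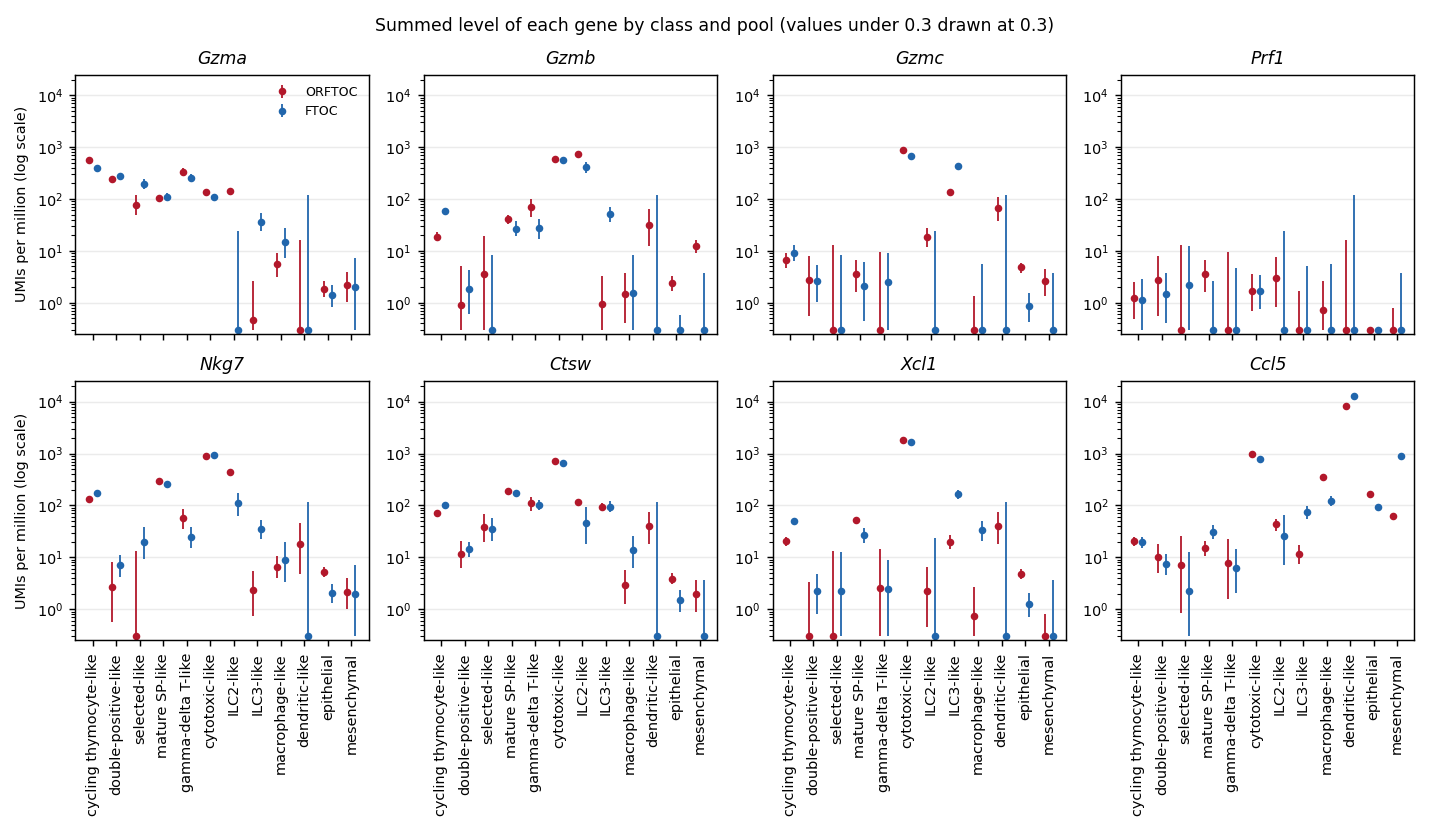
Level of each gene (UMIs per 1000000 UMIs, CPM, log axis) in each cell class, with ORFTOC and FTOC as separate points and bars for the 95% Poisson intervals, values under 0.3 being drawn at 0.3. Gzma is highest in cycling thymocyte-like cells, Gzmc and Xcl1 in cytotoxic-like cells and Ccl5 in dendritic-like cells, while Prf1 stays near the bottom of the axis in each class.

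Gzma, a tryptase among the granzymes, was higher in the cycling and double-positive-like classes, each taken as a whole, than in cytotoxic-like cells. It stood at 498 CPM (interval 483.5 to 512) in cycling thymocyte-like cells, at 558 in ORFTOCs and 404 in FTOCs, and 521 of the 817 cells held at least 1 UMI. Double-positive-like cells followed with 265 (246 and 273), then selected-like cells with 152 (77.7 and 198.0) and cytotoxic-like cells with 122 (137 and 109). The interval of selected-like cells (125 to 183) overlapped that of cytotoxic-like cells (115 to 129.7), so this pair is not ordered beyond counting error. Epithelial cells, which should lack the gene, stood at 1.67 CPM.

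Depth differed among these classes, with medians of 9925 UMIs per cell in cycling and 1628.5 in double-positive-like cells. After each cell was thinned to 1000 UMIs, which left out 0 cycling and 0 cytotoxic-like cells and kept 1990 double-positive-like and 312 selected-like cells, 25.7% of cycling, 15.6% of double-positive-like, 11.5% of selected-like and 8.43% of cytotoxic-like cells held Gzma, against 0.270% of epithelial cells. The unthinned shares were 63.8%, 23.5%, 19.6%, 25.5% and 1.39%. The thinned shares kept the order of the levels, and the unthinned share of cytotoxic-like cells rose above those of both shallower thymocyte classes.

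In 3 other classes the Gzma level belonged to a few cells. In γδ T-like cells it was 284 CPM, but 3 of 173 cells held 92.4% of the UMIs and the level without them was 22.5. In mature single-positive-like cells it was 107, of which 1 cell held 204 of 427 UMIs, and it was 29.8 without the 3 highest cells. In ILC2-like cells it was 127 and 37.8 without the 3 highest. These classes are thus not placed in the order above.

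Within the thymocyte classes Gzma varied from cluster to cluster. The highest levels were 835 CPM in double-positive-like cluster 14, of 121 cells led by interferon-response genes such as Ifit1 and Usp18 (977 in its 18 ORFTOC cells, 808 in its 103 FTOC cells) and 811 in cycling cluster 10, of 225 cells led by Tubb3, Ccnb2 and other genes of mitosis (947 and 589). Cycling cluster 6, of 443 cells led by histone genes, stood at 506 (580 in ORFTOCs, 386 in FTOCs). Cycling cluster 13, of 149 cells, stood at 147 (56.8 and 267), and at 42.3 without its 3 highest cells. It had the highest Klrd1 level of the cycling clusters, and mature single-positive-like was its second-best name by markers. The histone-led and mitotic clusters were higher in ORFTOCs than in FTOCs beyond their counting intervals, and cluster 13 ran the other way, its FTOC level being 25.1 without the 3 highest cells. Among the other double-positive-like clusters the level was 352 in cluster 2 (665 cells led by Ly6d), 245 in cluster 15 (82 cells, 119.6 without the 3 highest) and 121 in cluster 1 (1228 cells led by Rag1, a gene of receptor rearrangement). Cluster 1, the largest of them, was thus not above cytotoxic-like cells, which stood at 122. In ORFTOCs it stood at 96.4, against 137 in cytotoxic-like cells. Gzma was itself among the 10 leading genes of the mitotic cluster although it took no part in the clustering.

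Gzma also differed with the receptor contigs of the cells. In cycling thymocyte-like cells it was 374 CPM in 91 cells with no TRB contig, 576 in 538 cells with a TRB but no α-chain (TRA) contig, and 358 in 188 cells with both. In ORFTOCs these levels were 500.0, 684 and 212, and in FTOCs 224, 381 and 545. The pools thus ran opposite ways for cells with both chains, where a single FTOC cell held 190 of the 541 UMIs. In mature single-positive-like cells with both chains, Gzma was 25.4 in 430 cells.

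**Figure D3:**
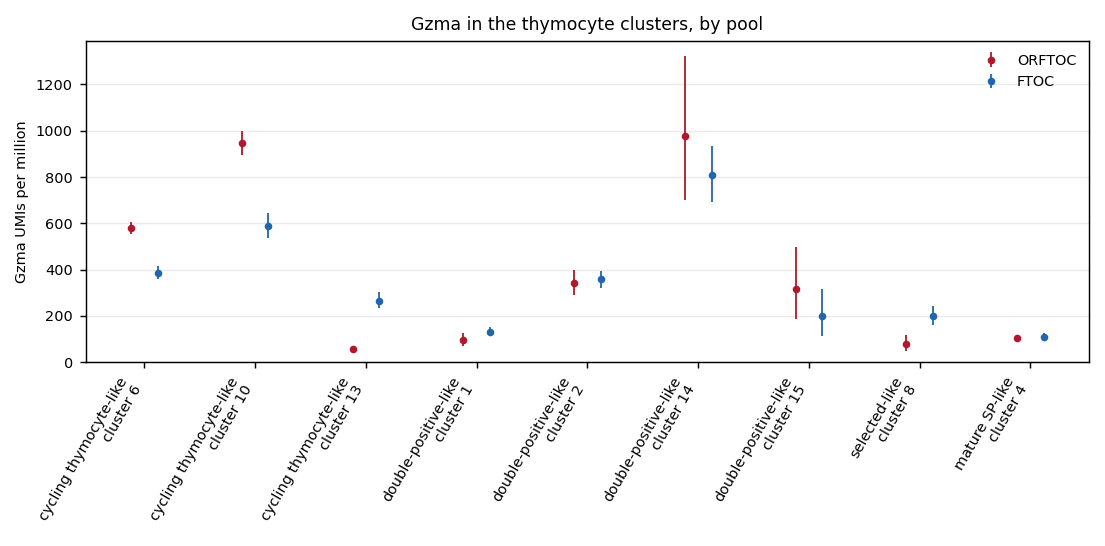
Gzma level (UMIs per 1000000 UMIs, CPM) in the thymocyte clusters, numbered as in the text, with ORFTOC and FTOC as separate points and bars for the 95% Poisson intervals. The mitotic cycling cluster 10 (811 in both pools together) and the interferon-gene cluster 14 (835) lie highest, and the Rag1-led cluster 1 (121) lies low among them.

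Gzmb, the granzyme that cleaves after aspartate and can start the caspase cascade, was a gene of cytotoxic-like and ILC2-like cells. It stood at 572 CPM (556 to 588) in cytotoxic-like cells, at 579 in ORFTOCs and 565 in FTOCs, and 362 of the 830 cells held a UMI. ILC2-like cells stood at 693 (652 to 737), with 726 in 231 ORFTOC cells and 411 in 20 FTOC cells. Without the 3 highest cells of each class, ILC2-like cells stood at 528 and cytotoxic-like cells at 508. Of the FTOC ILC2-like cells only 4 held Gzmb, and the level fell to 16.5 without the 3 highest, so the FTOC value rests on these cells. ILC2-like cells were thus above cytotoxic-like cells in ORFTOCs and below them in FTOCs. All other classes lay far lower, at 41.0 in γδ T-like, 36.0 in mature single-positive-like and 33.8 in cycling thymocyte-like cells, whose intervals overlapped, and at 1.43 in epithelial cells. Of the cycling clusters, cluster 13 stood at 138, cluster 6 at 1.62 and cluster 10 at 6.25.

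Gzmc, a granzyme of the chromosome 14 run that is known from activated killer cells, was shared between cytotoxic-like and ILC3-like cells. It stood at 775 CPM (756.5 to 793) in cytotoxic-like cells, at 876 in ORFTOCs and 686 in FTOCs, in 268 of 830 cells. ILC3-like cells followed with 208 (134 in 459 ORFTOC cells, 431 in 129 FTOC cells), in 74 cells of which 21 held 10 UMIs or more. Without the 3 highest cells the ILC3-like level was 149.9, and 96.5 and 234 by pool. A small ILC3-like cluster of 34 cells led by Il1r1 and Il23r had 1077, from 8 cells, and 214 without its 3 highest. In macrophage-like and selected-like cells Gzmc had 0 UMIs, which allows up to 0.890 and 4.09 CPM at 3 counts, and in epithelial cells it stood at 3.13.

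The rest of the granzyme family was almost silent. Gzmd, Gzme, Gzmf, Gzmg, Gzmk, Gzmm and Gzmn were all under 20 CPM in cytotoxic-like cells, with Gzmm at 0.570 and Gzmf at 0.456 as the highest of them. Near-identical members of this family can share reads, and their counts are uncertain for that reason. The other 5 genes of the chromosome 14 run were among them.

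Prf1, which codes for the pore-forming protein of the granules, was counted in 48 of 8392 cells, with 50 UMIs in all and at most 2 in a cell. Cytotoxic-like cells had 15 UMIs in 15 of 830 cells (1.71 CPM, 0.957 to 2.82), 1.70 in ORFTOCs and 1.72 in FTOCs. Mature single-positive-like cells stood at 2.26 (1.03 to 4.30), ILC2-like at 2.67 (0.728 to 6.84), double-positive-like at 1.84 and cycling thymocyte-like at 1.18. All these intervals overlapped, so no class stood out for Prf1 at this depth. In epithelial cells 1 UMI was found in 2224 cells of a median of 12696.5 UMIs, a level of 0.0333. Of the 730 cytotoxic-like cells that could be thinned to 5000 UMIs, 11 still held Prf1, and 4 of these held Gzmb.

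Nkg7, a granule membrane protein needed for degranulation, was found in nearly all cytotoxic-like cells. It stood at 932 CPM (912 to 952.5), 904 in ORFTOCs and 956.5 in FTOCs, and 777 of 830 cells (93.6%) held it. ILC2-like cells had 405 (439 and 109), mature single-positive-like cells 288 (302 and 263) and cycling thymocyte-like cells 148 (133 and 172). The cycling value came mostly from cluster 13 (149 cells), at 612, against 13.0 in cluster 6 and 6.25 in cluster 10. Cluster 13 also had the highest Klrd1 level of the cycling clusters, so the class value does not describe clusters 6 and 10. γδ T-like cells had 35.1, selected-like 12.3, ILC3-like 10.45 and double-positive-like 5.78. Cytotoxic-like cells were above each of these classes in both pools, beyond the counting intervals. The order below them differed by pool: in ORFTOCs it ran from ILC2-like to mature and cycling cells, and in FTOCs from mature to cycling cells, whose interval (159 to 186.5) overlapped that of the 20 ILC2-like cells (63.6 to 175). ILC3-like and selected-like cells overlapped over both pools.

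Ctsw, the cysteine protease cathepsin W of T and natural killer cells, stood at 686 CPM (669 to 704) in cytotoxic-like cells, 722 in ORFTOCs and 655 in FTOCs, with 799 of 830 cells (96.3%) positive. It was less sharply confined than Xcl1 or Gzmc. Mature single-positive-like cells had 182 (189 and 171), and ILC2-like (109), γδ T-like (105) and ILC3-like cells (95.1) had overlapping intervals. Cycling thymocyte-like cells had 82.5, selected-like 36.9, double-positive-like 13.7 and epithelial cells 2.87. Within the cycling class Ctsw was 344.5 in cluster 13, 5.47 in cluster 6 and 4.02 in cluster 10.

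Xcl1, which codes for lymphotactin, had the largest share of its UMIs in cytotoxic-like cells among the 8. Cytotoxic-like cells stood at 1765 CPM (1737 to 1793), 1849 in ORFTOCs and 1691 in FTOCs, and 549 of 830 cells held it. Far below, the unnamed cluster 16 of 74 cells stood at 89.5 (192 in ORFTOCs, 3.12 in FTOCs, 16.5 without the 3 highest cells) and ILC3-like cells at 55.4, of which 1 cell held 96 of 159 UMIs (7.75 without the 3 highest). Mature single-positive-like cells stood at 42.8 (11.2 without the 3 highest), dendritic-like cells at 35.2, from 1 cell, and cycling cells at 31.9 (22.8 without the 3 highest). These classes are not ordered here. Xcl1 was 108 in cycling cluster 13, 13.6 in cluster 6 and 0 in cluster 10. In ILC2-like, γδ T-like and double-positive-like cells it was at 2.51 or lower. Its receptor gene Xcr1 had 0 UMIs in each immune class, the 29 dendritic-like cells included, where 0 UMIs allow up to 11.7 CPM.

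Ccl5, also known as RANTES, was highest outside the lymphocytes. The 29 dendritic-like cells stood at 8847 CPM (8486 to 9219), with a median of 52 UMIs per cell and 26 cells positive, and at 6458 without the 3 highest cells. Only 4 of these cells were from FTOCs, so the levels of 8316 in ORFTOCs and 12620 in FTOCs are not set against each other. Cytotoxic-like cells followed with 889 (869.5 to 909), 993.5 in ORFTOCs and 797 in FTOCs, and macrophage-like cells with 305 (350 and 123.5), or 150.4 without their 3 highest cells. Double-positive-like, selected-like and γδ T-like cells were at 8.15 or lower.

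Stromal cells held a sizeable part of the Ccl5 UMIs: 23.9% were in epithelial cells, at 133 CPM, and 7.01% in mesenchymal cells, at 208. Among epithelial cells the level was 415 in a cluster of 515 cells led by Bpifa1 and Cyp2f2 (482 in ORFTOCs, 207 in FTOCs) and 53.9 in a cluster of 310 cells led by genes of cortical epithelium such as Psmb11 and Prss16. In mesenchymal cells the 3 highest cells carried the value, which was 43.7 without them and, in the 57 FTOC cells, 882 with and 15.2 without them. Ambient RNA (the profile of 473890 nearly empty barcodes) also held Ccl5, at 113 CPM, and its part in the stromal values was not tested. The chemokine receptor gene Ccr1 stood at 159 CPM in macrophage-like and 0.912 in cytotoxic-like cells.

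The cytotoxic-like cells fell into 2 clusters that differed most in Gzmc, Xcl1 and Gzmb among the 8 genes. A cluster of 463 cells was led by Ly6c2, Jchain, Cxcr3, Plac8 and Klrd1, and a cluster of 367 cells (clusters 5 and 7 here) was led by Gzmc, Xcl1, Klra5, Tnni1 and Gzmb. Names went by a score, the mean log2 ratio of the markers of a class against the other immune cells. The first cluster scored 0.73 as cytotoxic-like and 0.54 as mature single-positive-like, so its name is a close call. The second scored 1.69 as cytotoxic-like and 0.0 for the next class. The log2 ratio of the second over the first was 4.86 for Gzmc, 2.82 for Xcl1, 2.72 for Gzmb, 0.54 for Ctsw, 0.45 for Ccl5, −0.20 for Nkg7 and −0.97 for Gzma. The Gzma difference was larger in ORFTOCs, with 230.5 in the first and 74.5 in the second cluster. In FTOCs these levels were 120.9 and 93.75. In the second cluster the median cell held 13 Xcl1, 4 Gzmb, 2 Gzmc and 0 Gzma UMIs, and in the first it held 0 of each of these 4. Nkg7 was even, with medians of 8 UMIs in the first and 10 in the second. The second cluster was 54.7% of ORFTOC and 36.2% of FTOC cytotoxic-like cells.

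Expression was also uneven among single cells. In cytotoxic-like cells 22 of 830 cells held 50% of the Gzmc UMIs and 22 held 50% of the Gzma UMIs, against 39 for Xcl1, 45 for Gzmb, 71 for Ccl5, 197 for Ctsw and 199 for Nkg7. The highest cells held 674 UMIs of Xcl1, 338 of Gzmc and 279 of Gzmb. Nkg7 and Ctsw were thus spread over the class, and the granzymes and Xcl1 were carried by few cells.

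Among the 730 cells thinned to 5000 UMIs, 304 (41.6%) held none of the 3 granzymes, 237 held 1, 166 held a pair and 23 held all 3. The most common patterns were Gzmb with Gzmc (134 cells), Gzmb alone (99) and Gzma alone (95). Gzmc was in 55.3% (49.3 to 61.2) of cells with Gzmb and in 10.54% (7.85 to 13.8) of cells without it. Xcl1 was in 95.6% of cells with Gzmc and in 49.8% of cells without it. Gzma ran the other way: it was in 13.2% of cells with Gzmc and in 23.4% of cells without it, and Xcl1 was in 47.3% of cells with Gzma and in 66.6% of cells without it.

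A productive TRB contig, which marks rearrangement of the β-chain locus, was found in 336 of the 830 cytotoxic-like cells (40.5%), 40.6% in ORFTOCs and 40.4% in FTOCs. As a background, the contig was also found in 4.14% of epithelial, 4.38% of ILC2-like, 17.8% of macrophage-like and 17.9% of γδ T-like cells, at median depths of 12696.5, 5821, 18702 and 5763 UMIs. Lack of a contig does not mean lack of β-chain constant-region RNA. Trbc1 was 133 in cytotoxic-like cells with the contig and 118 in those without it, and Trbc2 was 154 and 109. Of the 494 cells without the contig, 100 had no TRA contig and no UMI of Trac, Trbc1 or Trbc2. Cytotoxic-like cells with the contig had more Gzma and less of Gzmb, Gzmc, Nkg7, Ctsw, Xcl1 and Ccl5 than those without it. Gzma was 185 in ORFTOC and 171 in FTOC cells with TRB and 94.5 and 63.7 in cells without it. Gzmc was 345 and 275 with TRB and 1351 and 983 without it. Ccl5 was 414 and 557 with TRB and 1512 and 971 without it. Both pools showed the same order for each of these 3 genes.

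Over both pools, the log2 ratio of cells with TRB to cells without it was 1.20 for Gzma (1.02 to 1.39), −0.87 for Gzmb, −1.89 for Gzmc (−1.98 to −1.80), −0.30 for Nkg7, −0.52 for Ctsw, −0.93 for Xcl1 and −1.32 for Ccl5 (−1.39 to −1.24). For Gzmb the levels were 385 and 399 with TRB, in ORFTOCs and FTOCs, and 753 and 685 without it. For Xcl1 they were 1318 and 1028 with TRB and 2323 and 2172 without it. Nkg7 differed little, with 759 and 891 against 1034 and 1004. Of the 7 genes past 20 CPM, 1 was 2-fold or more higher with TRB and 2 were 2-fold or more lower, where 0.565% of 5667 genes compared were higher and 1.13% were lower. The genes were chosen for this contrast, so nothing is read from their share. Prf1 had a log2 ratio of 1.78 with an interval from 0.03 to 3.89, from 15 UMIs, and stood at 2.82 with and 0.821 without TRB.

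**Figure D4:**
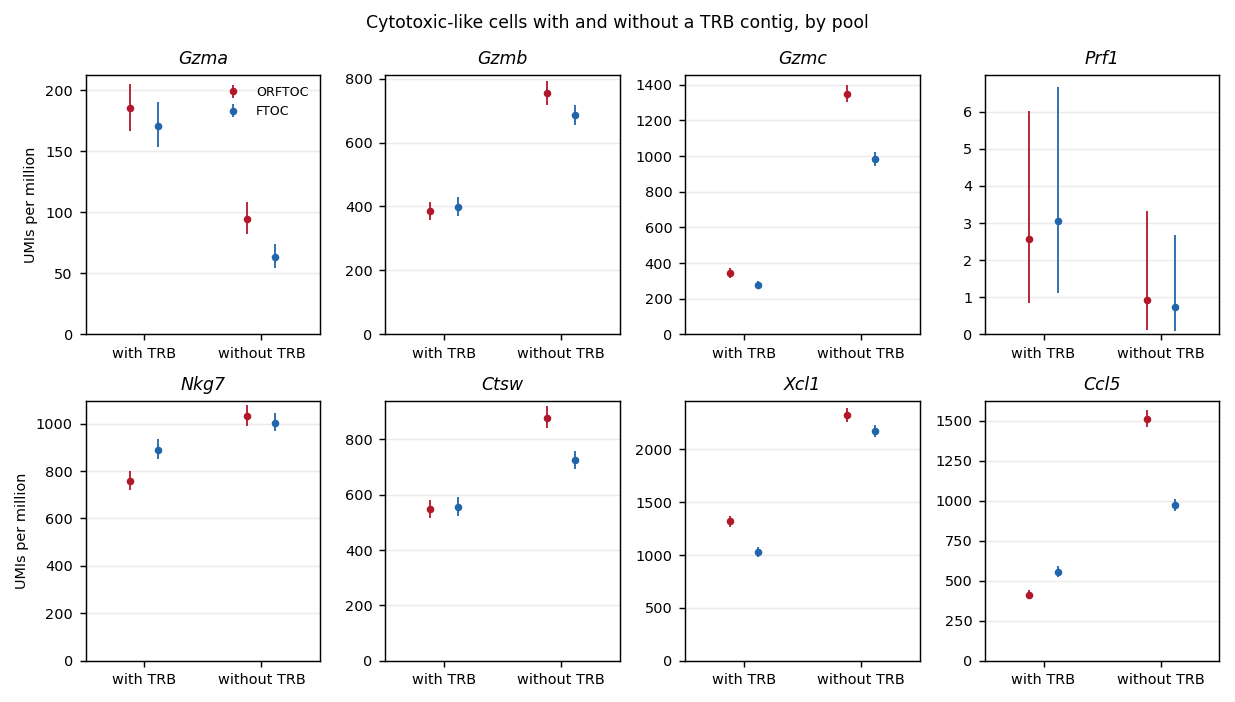
Level of each gene (CPM) in cytotoxic-like cells with and without a TRB contig, with ORFTOC and FTOC as separate points and bars for the 95% Poisson intervals. Gzma is higher with TRB in both pools, and Gzmb, Gzmc, Xcl1 and Ccl5 are lower with TRB in both pools.

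Within the cytotoxic-like clusters the contrast differed by gene. For Gzma it was 1.50 in the Ly6c2-led and 0.61 in the Gzmc-led cluster, for Xcl1 −0.76 and −0.84, and for Ccl5 −0.64 and −1.92. For Gzmb it was 0.74 and −1.02, and for Gzmc 0.66 and −1.88, so both genes were higher with TRB in the first cluster and lower in the second. The Ly6c2-led cluster held 208 cells with TRB of 463 (44.9%) and the Gzmc-led cluster 128 of 367 (34.9%).

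When the cells were graded by receptor chains, Gzma and Gzmb ran in opposite directions over both pools together. From 185 cells with TRB and TRA, through 151 with TRB alone and 334 without TRB but with a UMI of the δ-chain gene Trdc, to 160 with neither, Gzma was 194, 156, 88.1 and 47.0 CPM. Gzmb was 308, 514, 708 and 736 over the same 4 groups. Ccl5 was 305, 747, 959 and 1926, and Xcl1 was 1100, 1277, 2176 and 2418. Gzmc was 101, 611, 506 and 2953, and its middle step differed by pool, from 789 with TRB alone to 463 with Trdc in ORFTOCs and from 492 to 543 in FTOCs. Other steps also differed by pool. In ORFTOCs Gzma was 183 and 189 and Xcl1 was 1426 and 1097 in the first and second group, and Gzmb was 821 and 537 in the last pair. In FTOCs Ccl5 was 797 in the second and 684 in the third group. Gzmc in the last group was 4200 in ORFTOCs and 2107 in FTOCs. Median depth ran from 10958 and 9567 to 9314 and 7056 UMIs per cell, and its part in the series was not tested.

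Gzmc reached high levels in small sets of cells, and Gzma differed with CD8β among cells with TRB. In 36 cells without TRB that held a UMI of Ncr1, the natural killer receptor NKp46, Gzmc was 6688 CPM (7235 in 22 ORFTOC and 5991 in 14 FTOC cells). In the 9 cells without TRB and without CD3 UMIs it was 8386, from 7 cells with a Gzmc UMI. In 192 cells with TRB and a UMI of Cd8b1, the CD8β chain, Gzma was 259 (264 and 254.5) and Gzmc 154, against 67.3 and 522 in 144 cells with TRB and no Cd8b1 UMI. Gzma thus followed CD8β in both pools, and Gzmb ran the other way, with 274 in cells with Cd8b1 and 553 in cells without it.

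**Figure D5:**
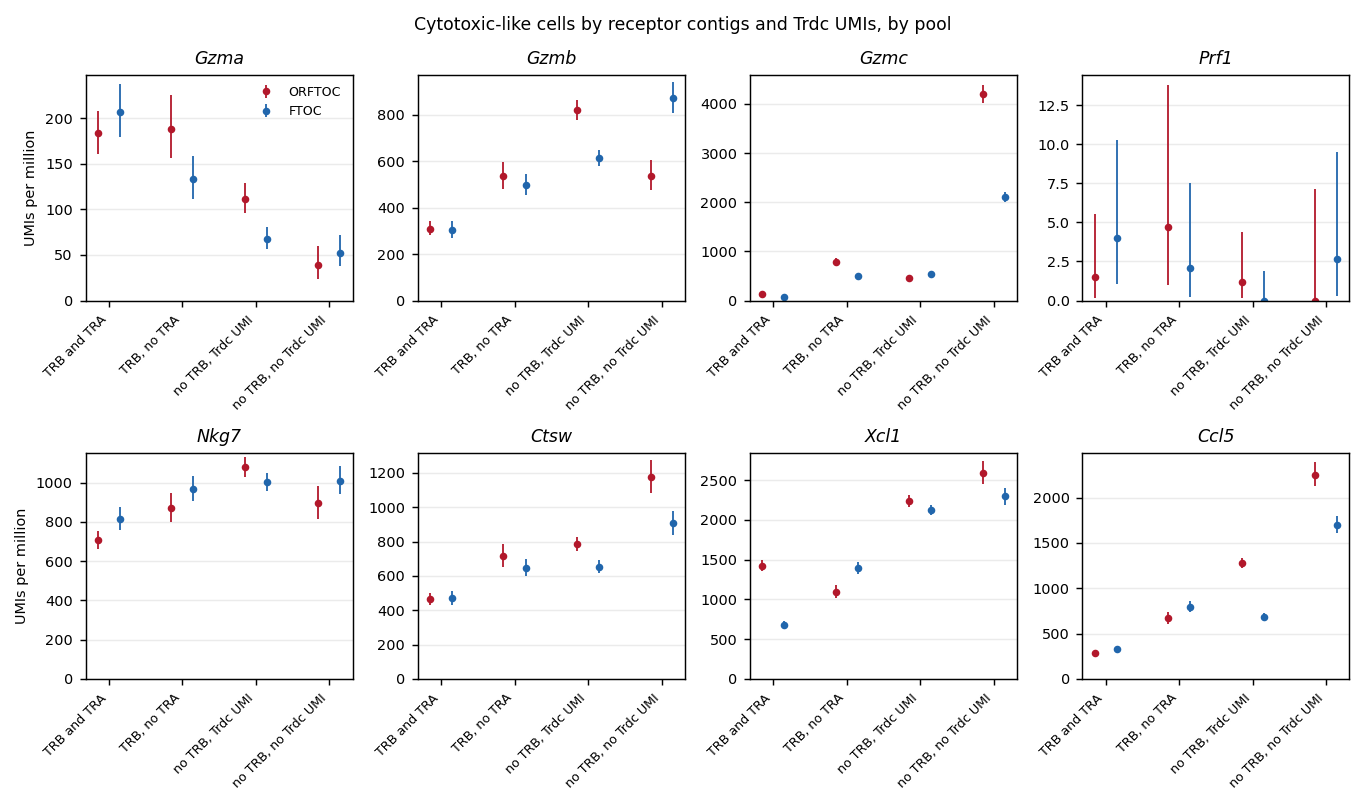
Level of each gene (CPM) in cytotoxic-like cells graded by receptor chains, from cells with TRB and TRA contigs to cells with neither TRB nor a Trdc UMI, with ORFTOC and FTOC as separate points and bars for the 95% Poisson intervals. With both pools together, Gzma falls from 194 to 47.0 along the 4 groups, while Gzmb rises from 308 to 736 and Ccl5 from 305 to 1926.

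Between pools the cytotoxic-like cells were close. The log2 ratio of ORFTOC over FTOC was 0.34 for Gzma (0.16 to 0.51), 0.04 for Gzmb, 0.35 for Gzmc (0.28 to 0.42), −0.08 for Nkg7, 0.14 for Ctsw, 0.13 for Xcl1 and 0.32 for Ccl5 (0.25 to 0.38). For Prf1 it was −0.01 with an interval from −1.71 to 1.65, so that a difference was not detectable at this depth. Of the 7 genes past 20 CPM, 0 were 2-fold or more higher and 0 were 2-fold or more lower in ORFTOCs, where 0.301% of 5649 genes compared were higher and 0.407% were lower. With 1 pool of each kind, whether any of these differences exceeds the spread between cultures cannot be said.

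The ratio of ORFTOC over FTOC differed between the cytotoxic-like clusters, and for Gzma and Ccl5 its sign was opposite in them. The part of cluster make-up in the ratios over all cytotoxic-like cells was not tested. Within the Ly6c2-led cluster 5 the log2 ratio was 0.93 for Gzma, −0.56 for Gzmc and −0.26 for Ccl5. Within the Gzmc-led cluster 7 it was −0.33 for Gzma, −0.03 for Gzmc, −0.34 for Gzmb, −0.23 for Xcl1 and 0.61 for Ccl5. The Gzmc ratio, positive over all cytotoxic-like cells, was thus not positive within either cluster. The pools also differed in the sex of their cells: the Y-linked genes Eif2s3y and Ddx3y stood at 37.2 and 17.3 CPM in ORFTOC cytotoxic-like cells and had 0 UMIs in FTOC ones (up to 0.644 CPM at 3 counts), and Xist stood at 148 and 408. ORFTOC cytotoxic-like cells thus held both Xist and Y-linked RNA. Cells were not split by sex, so culture and sex of the embryos cannot be told apart in these values.

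Genes that act with the granzymes were present in the same cells. Of 9 granule matrix and processing genes, Srgn, the proteoglycan that packs granzymes, stood at 824 CPM in cytotoxic-like cells and the lysosomal protease gene Ctsd at 256. Of the 7 of them that could be compared, 0 differed 2-fold between pools or with TRB, and the largest TRB ratios were −0.74 for Cst7 and −0.45 for Lamp2. Of 10 granule release genes, Vamp8 stood at 116 and Ap3b1 at 63.1, and 0 of the 7 compared passed 2-fold.

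Some inhibitors and chemokines did differ with TRB. Of 4 serpin genes (protease inhibitors) compared, 2 were 2-fold or more lower with TRB: Serpina3g, at 13.1 with and 81.5 without (log2 −2.64), and Serpinb6a (−1.06). Serpinb6b stood at 77.7 (−0.67 with TRB) and Serpinb9, which protects killer cells from their own Gzmb, at 42.0 (−0.47). Of the chemokine and receptor list, Ccl4 was 252 in ORFTOC and 50.6 in FTOC cytotoxic-like cells, a log2 ratio of 2.31, and it was lower with TRB (−2.01), as was Ccl3 (−2.68). Ccl4 and Ccl3 code for chemokines of the same CC family as Ccl5. Of the cytokine list, Tnfsf10 stood at 44.9 and Fasl at 17.8, and Lta was lower with TRB (−1.28).

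Of 10 transcription factors, Id2 (162) and Runx3 (157) stood highest, and 0 of 8 compared passed 2-fold in either contrast. Their largest pool ratios were −0.94 for Hopx and −0.47 for Tbx21, and their largest TRB ratios −0.85 for Id2 and −0.60 for Tbx21. Of the T-cell identity list, Cd8b1 (1.65) and Trac (1.41) were 2-fold higher with TRB and Trdc was lower (−1.25), of 11 compared. Of the natural killer list, Fcer1g (539) and Klrd1 (530) stood highest. Of its 6 genes, 5 were 2-fold or more lower with TRB: Ncr1 (−2.32), Klrk1 (−2.18), Tyrobp (−1.70), Fcer1g (−1.36) and Klrb1c (−1.25). Of the cycling list, Top2a stood at 185 and Mki67 at 134, and 0 of 3 passed 2-fold. Of 10 markers of mast cells, macrophages, epithelium and mesenchyme, 0 passed 20 CPM in cytotoxic-like cells, the highest were Lyz2 (14.7) and Krt8 (8.10), and Mcpt4, Cma1 and Pdgfra had 0 UMIs, which allows up to 0.342 CPM.

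Over 25 groups of class and pool, the genes whose levels ran most like each member were found among 7596 genes by the correlation of log2(CPM + 10), given as a description of groups that share 1 lane and differ in depth. Gzma ran with the T-cell genes Trbc1 (r = 0.89) and Cd3e (0.88) and with Snai3 (0.87). Gzmb ran with Ctla2a (0.91), Ccr8 (0.89) and Gm19585 (0.88), and Gzmc with Car2 (0.88), Cd244a (0.86) and Klra5 (0.81). Xcl1 ran with the killer receptor genes Klra5 (0.89) and Klrd1 (0.88) and with Cxcr3 (0.84). Ctsw ran with Cd7 (0.92), Gimap4 (0.88) and Cd160 (0.88), Nkg7 with Gm19585 (0.89), Ms4a4b (0.84) and Rps6 (0.82), and Ccl5 with Adap1 (0.80), Slamf7 (0.77) and Lrrk1 (0.76). Prf1, which is under the minimum level set for the other genes, had no r above 0.67 (Dtx1), and Ubash3a (0.65) and Uck2 (0.63) came next.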

How the data were processed

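RNA of both pools was sequenced in 1 lane (10x 5′ version 2). The authors deposited an unfiltered table of raw UMI counts per gene and barcode, together with hashtag counts and receptor contigs. Their processing notes name Cell Ranger 6.1.2 and Seurat 4.2.0 on mm10. The table held 103984163 UMIs over 705161 barcodes and 32285 genes.

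From the deposited counts, barcodes with at least 600 genes and 0.4 to 10% mitochondrial UMIs were kept, pools were assigned with HTODemux (quantile 0.99), and hashtag doublets (590) and within-pool doublets (591, by the share of known doublets among 50 neighbours) were removed. Cells were clustered with Seurat 5.3.0 and sctransform 0.4.2 in R 4.3.3 (18 principal components, resolution 0.4 for all cells and 1 for immune cells), with cell-cycle scores regressed and the 8 genes left out. A cluster was named from at least 3 detected markers, and 1 cluster of 74 cells stayed unnamed. Ratios, intervals and shares were computed in Python 3.11.15 with numpy 2.4.6, scipy 1.17.1 and pandas 2.3.3, and the code was tested on simulated data. Counts of genes past 2-fold used genes at 20 CPM (UMIs per 1000000) or more in a group compared, and a count of 0 was read against a floor of 3 counts. A TRB contig was a productive β-chain contig of the same barcode, and 3883 of 4616 barcodes with one were among the kept cells.

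All 8 genes are described. Of each pathway list, the rule was to name genes with the 2 highest levels and the 2 largest ratios among genes past the minimum. Not every such ratio is given, above all between pools. Other genes were added after their values were seen where these rules did not name them. Among them were Serpinb9, Fasl, Ccl3, Ncr1, Klrb1c, Trdc, Trbc1, Trbc2, Lta, Mcpt4, Cma1 and Pdgfra. The 8 genes, the lists and the rules were chosen with earlier results of these data known. With 1 sample per pool, no p-value was computed. Alternatives covered filters, doublets, hashtags, clustering and ambient RNA. One gene of the chemokine and receptor list is not reported here.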

Additional observations from a re-analysis of the deposited data

Results flagged for a closer look

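In 5 cases a ratio had opposite signs in 2 groups of cytotoxic-like cells. None of these differences was tested, since each pool is 1 sample. For Ccl5, the log2 ratio of ORFTOC over FTOC was −0.43 in cells with TRB and 0.64 in cells without it, a difference of −1.07. For the same gene it was −0.26 in the Ly6c2-led and 0.61 in the Gzmc-led cluster, a difference of −0.87. For Gzma, the log2 ratio of ORFTOC over FTOC was 0.93 in the Ly6c2-led and −0.33 in the Gzmc-led cluster, a difference of 1.26.

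The ratio of cells with TRB to cells without it also changed sign between these clusters. It was 0.74 and −1.02 for Gzmb, a difference of 1.76, and 0.66 and −1.88 for Gzmc, a difference of 2.54. In the Ly6c2-led cluster only 6 of 463 cells held 10 or more Gzmc UMIs and 22 held 10 or more Gzmb UMIs, so few cells carry the ratios there.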

How the results depend on the processing

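The share of the UMIs of the 8 genes in cytotoxic-like cells, 66.8%, moved past its counting interval in each alternative run. It was 63.9% with within-pool doublets kept, 60.9% with a minimum of 1000 genes, 64.9% with a hashtag ratio rule, 65.5% with 30 principal components, 59.6% at resolution 2, 67.3% with ambient RNA subtracted (2.10% of UMIs in ORFTOCs, 4.06% in FTOCs), 65.8% without cells holding UMIs of another compartment and 63.1% as a mean over cells. It was 51.3% with the 8 genes kept among the clustering features, where 363 cells were named cytotoxic-like and the Ly6c2-led cluster stayed unnamed, and 45.9% when a Klrd1 UMI defined the class. With cycling cluster 13, that of highest Klrd1 level, added, a choice made after seeing the data, it was 70.9%. The genes past 2-fold with TRB then rose from 3 to 5. In the other alternatives that count was 3 or 4. The count between pools stayed at 0 in 13 alternatives, while the pool ratio ran from −0.35 to 0.44 for Gzma, −0.48 to 0.29 for Gzmb and −0.27 to 0.27 for Xcl1. Over the alternatives 72 of 96 pool ratios kept their sign. Of 112 TRB ratios over the whole class, 111 did, the exception being Prf1 (−0.46 at lowest), but their size moved: Gzmc ran from −3.31, with cells without TRB limited to those with no TRA contig and no Trac, Trbc1 or Trbc2 UMI, to −1.40, with the 8 genes kept among the clustering features, and Xcl1 from −1.54 to −0.46. The shares of single genes fell as low as 55.9% for Xcl1, 49.4% for Gzmc, 49.99% for Gzmb, 35.7% for Nkg7 and 5.17% for Gzma. Within the Ly6c2-led cluster the Gzmc TRB ratio was 0.66. The causes were not tested. No paired analysis was possible because each pool is 1 sample. Prf1 rests on 15 UMIs in the class, and its ratios have wide intervals.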

Other observations

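Outside the cytotoxic-like class, some of the 8 genes differed between pools through few cells. In cycling thymocyte-like cells Gzmb stood at 18.7 CPM in ORFTOCs and 57.5 in FTOCs, with UMIs in 42 of the 817 cells. In the 129 FTOC ILC3-like cells, the highest cell held 25 of 26 Gzma, 24 of 36 Gzmb, 25 of 25 Nkg7, 96 of 116 Xcl1 and 47 of 52 Ccl5 UMIs of each gene.

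A cluster of 74 cells (34 ORFTOC, 40 FTOC) that was given no name was led by Reg3g, Ubd and S100a8, and 37 of its cells had a TRB contig. It held Nkg7 at 115 CPM in 12 cells, Ctsw at 111.5 in 10 cells and Ccl5 at 106 in 14 cells. No test was made of these values.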
